A study of Mus musculus with 12 samples.

Results

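Potassium, sodium, calcium and chloride channel genes were followed across quiescent, activated and Nedd4L-deficient mouse muscle stem cells. Members were chosen by symbol: every Kcn, Scn or Scnn, Cacn, Clcn and Hcn gene listed in the expression tables, pore-forming and auxiliary subunits alike. In all, 112 such genes were listed in at least 1 of the 2 tables, of 17505 genes listed in either. The table of myoblasts and MuSCs held 99 of them among 16503 genes, and the table of genotypes held 88 among 16169, with 75 in both. By ion, the 112 were 68 potassium, 20 calcium, 13 sodium and 8 chloride channel genes and 3 HCN genes, whose hyperpolarization-activated channels carry both sodium and potassium.

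Muscle stem cells (MuSCs, the PAX7-positive satellite cells that repair skeletal muscle) had been sorted from mouse hindlimb as ITGA7+, CD31-, CD45-, CD11b- and SCA1- cells. RNA of 1000 cells per library was amplified and sequenced with a SMART-Seq protocol. The first comparison set 3 libraries of freshly sorted WT MuSCs (MuSC 4, 5 and 6) against 3 libraries of WT myoblasts (myoblast 4, 5 and 6). The myoblasts had been grown from sorted MuSCs for 3 days in serum and bFGF. Each MuSC library shares a number in its label with a myoblast library. Whether a shared number means a shared mouse is not given in the sources used here, nor is the age of these mice. The second set freshly sorted MuSCs of 3 WT male mice (WT 1, 2 and 3) against those of 3 Nedd4L-cKO male mice (cKO 1, 2 and 3), all 5 to 6 weeks old. The cKO mice carried floxed Nedd4L alleles and Cre under the control of Pax7, so that exon 15 was removed in Pax7-expressing cells and remained absent from the cells derived from them, muscle fibers included. The transcript is still made, and what the WT mice carried beyond their WT label is not given in the sources used here.

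Ion channels set the membrane potential and the calcium entry of a cell. Voltage-gated sodium and calcium channels depolarize it, potassium channels hold or restore a negative potential, and ClC chloride proteins work at the plasma membrane or, as chloride/proton exchangers, in endosomes and lysosomes. In skeletal muscle the L-type calcium channel of the T-tubule is the voltage sensor of excitation-contraction coupling, and inwardly rectifying and calcium-activated potassium channels are known to hyperpolarize myoblasts as they differentiate. NEDD4L, an E3 ubiquitin ligase, is known to ubiquitinate several channels, among them the epithelial sodium channel ENaC, voltage-gated sodium channels and Kv7 potassium channels, and thereby to remove them from the membrane. That regulation acts on protein, whereas the measurements here are of RNA.

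Values are normalized counts scaled to 1000000 per library on average (RPM), differences are on the log2(RPM + 1) scale with their standard error (SE), and p-values are those of limma with Benjamini-Hochberg adjustment over all genes tested. This scale understates the difference of a gene near 0, and where a group is listed at 0 the fitted difference depends on the added 1 RPM and is not a bound on the fold. For the myoblast comparison, a gene with an adjusted p of at most 0.05 counted as called. For the genotype comparison it had in addition to reach a log2 difference of 1 in size and 5 RPM on average. Nedd4L itself, the deleted gene, had 70.2, 96.4 and 66.7 RPM in WT 1, 2 and 3 against 30.2, 36.3 and 22.5 RPM in cKO 1, 2 and 3, a log2 difference of -1.37 ± 0.28 (SE; adjusted p = 0.0467). It was also lower in myoblasts (126, 77.6 and 76.3 RPM in MuSCs against 42.0, 30.3 and 29.8 RPM; log2 difference -1.40 ± 0.26, adjusted p = 0.00289).

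Marker genes were examined in both tables. The summed level of 15 MuSC markers ran from 6947 to 9868 RPM in the MuSCs and from 851 to 953 RPM in the myoblasts of the first cohort, and 16 markers of muscle fibers summed to 434 to 691 RPM in MuSCs and to 12832, 21782 and 34862 RPM in myoblasts 4, 5 and 6. Myoblast 6 therefore carried the most muscle fiber marker RNA and myoblast 4 the least. The 13 markers of cycling or differentiating myoblasts stood in the same order, at 16952, 22714 and 33860 RPM in myoblasts 4, 5 and 6. In MuSCs they summed to 1423 to 1969 RPM. Markers of fibro-adipogenic cells (12 of 12 listed) summed to 3151 to 3698 RPM in MuSCs and 261 to 365 RPM in myoblasts, with 6 of 10 tested called lower and 1 higher, and Dpt was listed at 0 in all 3 myoblast libraries. Endothelial markers (5 of 12 listed) went from 44.8 to 47.0 RPM in MuSCs to 13.9 to 24.6 RPM in myoblasts, and those of smooth muscle and pericytes (8 of 10 listed) from 1136 to 1484 RPM to 1681 to 2447 RPM, with none of 8 called. In the second cohort the MuSC markers summed to 6545 to 10821 RPM in WT and 5449 to 8889 RPM in cKO. Of these 15 markers, 2 were called lower in cKO, against 0.203% of all genes tested. The 16 muscle fiber markers, all listed, summed to 632, 342 and 414 RPM in WT 1, 2 and 3 and to 907, 731 and 761 RPM in cKO 1, 2 and 3, without overlap, and none of the 16 was called. The fibro-adipogenic, endothelial and Schwann cell markers overlapped between the genotypes. The 13 markers of cycling or differentiating myoblasts also overlapped (348 to 1337 RPM in WT and 936 to 1436 RPM in cKO). Of these 13, 1 was called higher in cKO, against 0.451% of all genes tested. Markers of smooth muscle and pericytes (9 of 10 listed) summed to 1219 to 1969 RPM in WT and 2196 to 3353 RPM in cKO libraries without overlap, and the immune markers (6 of 12 listed) summed to at most 10.2 RPM in every library except WT 3, at 39.2 RPM.

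**Figure D1:**
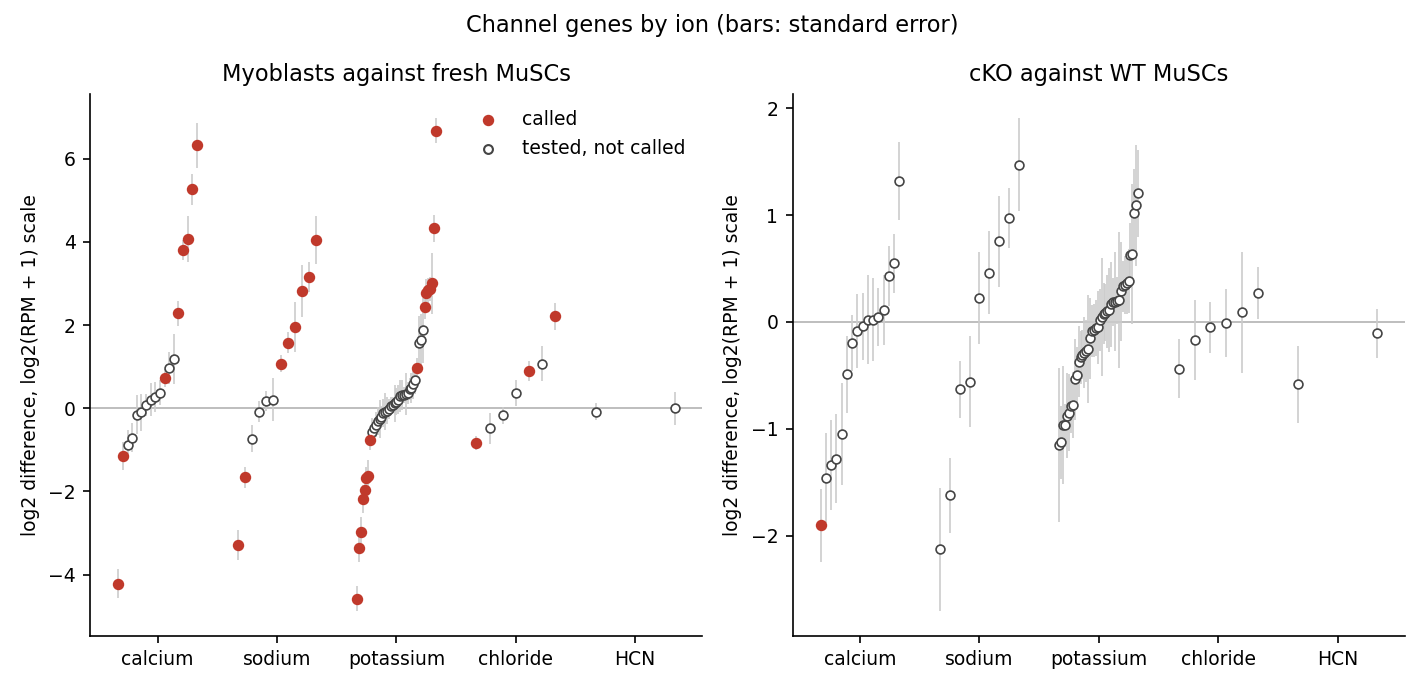
Log2 difference (log2(RPM + 1) scale) of every channel gene tested, by ion, for myoblasts against fresh MuSCs (left) and cKO against WT MuSCs (right). Points are genes sorted by size, bars are standard errors, filled points are called genes; 35 of 82 were called on the left and 1 of 75, Cacna2d4, on the right, and the vertical scales differ.

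Culture of MuSCs into myoblasts was accompanied by large differences in both directions among the channel genes. Of the 99 members listed, 82 passed the filter on low values, and 35 of these were called, 22 higher and 13 lower in myoblasts. Of all 15345 genes tested, 42.8% were called, 22.2% higher and 20.6% lower, so the share of channel genes called, 35 of 82, was near the background. At an unadjusted p under 0.05 there were 43 channel genes, 27 higher and 16 lower, against 51.5% of all genes (26.7% and 24.8%), and groups did not overlap for 41 channel genes, 25 higher and 16 lower, against 55.2% (28.4% and 26.8%). In these bulk libraries, fewer cells of a type and less RNA per cell cannot be told apart. The median log2 difference was 0.21 over the 82 channel genes and 0.04 over all genes. When each library was instead scaled to its own total, these medians were 0.26 and 0.14, and the same number of channel genes, 35, was called. The channel genes together summed to 660, 592 and 684 RPM in MuSCs 4, 5 and 6 and to 1153, 1440 and 1669 RPM in myoblasts 4, 5 and 6. Most of that difference lay in the calcium channel subunits, which went from 92.6 to 99.0 RPM in MuSCs to 386, 594 and 852 RPM in myoblasts. The chloride members summed to 331 to 381 RPM in MuSCs and 297 to 320 RPM in myoblasts.

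Among the calcium channel genes, Cacna1s, Cacnb1 and Cacng1, which encode subunits of the muscle L-type channel, were higher in myoblasts, and the auxiliary subunit Cacna2d4 was almost absent from them. Of 18 calcium members tested, 6 were called higher and 2 lower, against 22.2% and 20.6% of all genes tested. For 6 and 3 the groups did not overlap, against 28.4% and 26.8%. Cacna1s, which encodes the pore and voltage sensor of the muscle channel (Cav1.1), stood at 0.135, 0.0712 and 0.0715 RPM in MuSCs 4, 5 and 6. In myoblasts 4, 5 and 6 it reached 33.7, 112 and 169 RPM. Every myoblast library lay far above every MuSC library, with a log2 difference of 6.32 ± 0.54 (adjusted p = 3.86e-05). The order among the myoblasts was that of the summed muscle fiber markers and of the summed markers of cycling or differentiating myoblasts. Cacna1s lies on chr1:135980259-136047560 (GRCm39, plus strand), and 16.5% of its exonic bases overlap a lncRNA on the opposite strand whose reads cannot be told apart without strand.

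Cacnb1, the beta subunit that carries Cav1.1 to the membrane, stood at 12, 14.8 and 10.1 RPM in MuSCs and at 171, 158 and 226 RPM in myoblasts. This was 15 times the mean of MuSCs (12.3 ± 2.37 against 185 ± 36.3 RPM, SD, n = 3 each), with a log2 difference of 3.80 ± 0.24 (adjusted p = 8.21e-06). Cacng1, the gamma subunit of the muscle channel, stood at 3.54, 20.9 and 9.63 RPM in MuSCs and 104, 179 and 266 RPM in myoblasts, a log2 difference of 4.07 ± 0.55 (adjusted p = 0.000493). The MuSC libraries therefore already held RNA of these 2 auxiliary subunits while the pore was close to 0. Both subunits were highest in MuSC 5, which also had the most muscle fiber marker RNA of the MuSC libraries. That marker RNA stood at 463, 691 and 434 RPM in MuSC 4, 5 and 6. Cacnb1 had the same order, whereas Cacng1 was lower in MuSC 4 than in MuSC 6. The part of fiber RNA in these values was not tested. Cacng6, another gamma subunit, was listed at 0 in all 3 MuSC libraries and at 23.9, 38.1 and 57.5 RPM in myoblasts (adjusted p = 1.56e-05). A lncRNA on the opposite strand overlaps 20.9% of its exonic bases. Cacnb3, a beta subunit found with many Cav channels, stood at 2.66, 4.2 and 2.75 RPM in MuSCs and 18.6, 18.7 and 20.4 RPM in myoblasts, a log2 difference of 2.28 ± 0.30 (adjusted p = 0.000425).

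The promoters of Cacna1s and Cacng6, and of Kcnf1 and Kcnn4 among the potassium channel genes, are shown because these 4 genes were at or near 0 in every MuSC library and well expressed in every myoblast library. The sequences are the 250 bases before the RefSeq gene start (build GRCm38.p6), 5′ to 3′ on the strand of the gene, and capitals mark the E-box CANNTG, the motif that myogenic factors such as MYOD1 are known to bind; the motif reads the same on both strands.
Cacna1s (chr1:136052561-136052810, plus strand): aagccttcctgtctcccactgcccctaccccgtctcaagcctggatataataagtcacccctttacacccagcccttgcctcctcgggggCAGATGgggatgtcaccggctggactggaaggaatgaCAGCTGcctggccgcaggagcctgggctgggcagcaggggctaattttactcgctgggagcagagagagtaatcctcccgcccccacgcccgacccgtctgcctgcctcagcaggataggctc
Cacng6 (chr7:3424412-3424661, plus strand): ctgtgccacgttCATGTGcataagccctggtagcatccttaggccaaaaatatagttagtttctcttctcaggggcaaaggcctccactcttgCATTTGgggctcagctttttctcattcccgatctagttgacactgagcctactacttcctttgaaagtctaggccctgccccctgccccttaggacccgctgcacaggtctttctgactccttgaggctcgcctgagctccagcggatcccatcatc
Kcnf1 (chr12:17176889-17177138, minus strand): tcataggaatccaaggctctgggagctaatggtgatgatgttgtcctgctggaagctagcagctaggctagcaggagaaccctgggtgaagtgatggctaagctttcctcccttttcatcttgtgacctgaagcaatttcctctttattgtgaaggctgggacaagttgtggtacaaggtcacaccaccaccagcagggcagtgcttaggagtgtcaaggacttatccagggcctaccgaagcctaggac
Kcnn4 (chr7:24370013-24370262, plus strand): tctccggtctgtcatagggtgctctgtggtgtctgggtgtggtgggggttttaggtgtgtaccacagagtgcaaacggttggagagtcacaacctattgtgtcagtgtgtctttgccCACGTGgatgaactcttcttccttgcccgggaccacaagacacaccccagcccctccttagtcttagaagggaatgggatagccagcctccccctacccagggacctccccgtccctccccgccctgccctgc
Cacna1s held 2 E-boxes, of which CAGCTG is the form most often described for myogenic factors, Cacng6 held 2, Kcnn4 held 1 and Kcnf1 none. An E-box was present in 66.2% of all 32851 promoters of this length and CAGCTG in 13.0%. A promoter was found for 76 of the 112 members, 106 promoters in all since some genes have more than 1 start. E-boxes were present in 18 of the 25 promoters of 16 genes called higher in myoblasts (72.0%) and in 11 of the 15 promoters of 11 genes called lower (73.3%), and CAGCTG in 3 of 25 and 5 of 15.

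Cacna2d4, an alpha2delta subunit best known from the retina, moved the other way. It stood at 31.5, 21.8 and 26.9 RPM in MuSCs and 1.11, 0.120 and 0.356 RPM in myoblasts, which is 1.98% of the MuSC mean. The log2 difference was -4.22 ± 0.35 (adjusted p = 3.52e-05). Cacnb4, a beta subunit, was also lower (5.75, 5.99 and 7.99 RPM against 2.58, 1.56 and 3.18 RPM; log2 difference -1.15 ± 0.33, adjusted p = 0.0211), and 15.7% of its exonic bases overlap a lncRNA on the opposite strand. This call was lost without MuSC 6 (adjusted p = 0.0691) or without myoblast 5 (adjusted p = 0.0872). Members named from here to the end of this paragraph were picked after their values were seen. Cacna2d1, the alpha2delta subunit of the muscle channel, stood at 30.8, 13.1 and 26.1 RPM in MuSCs and 17.7, 77.3 and 97.1 RPM in myoblasts. The groups overlapped through myoblast 4, and the log2 difference of 1.19 ± 0.59 was not called (adjusted p = 0.137), whereas without myoblast 4 it was 1.93 with an adjusted p of 0.00344. Cacna1c, the pore of the cardiac L-type channel, stayed under 1.4 RPM in every library (0.135 RPM in MuSCs and 0.911 RPM in myoblasts on average). Its call (log2 difference 0.73 ± 0.22, adjusted p = 0.0269) was lost without MuSC 4, MuSC 5, myoblast 5 or myoblast 6, with adjusted p-values of 0.0780, 0.0752, 0.0744 and 0.0942.

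**Figure D2:**
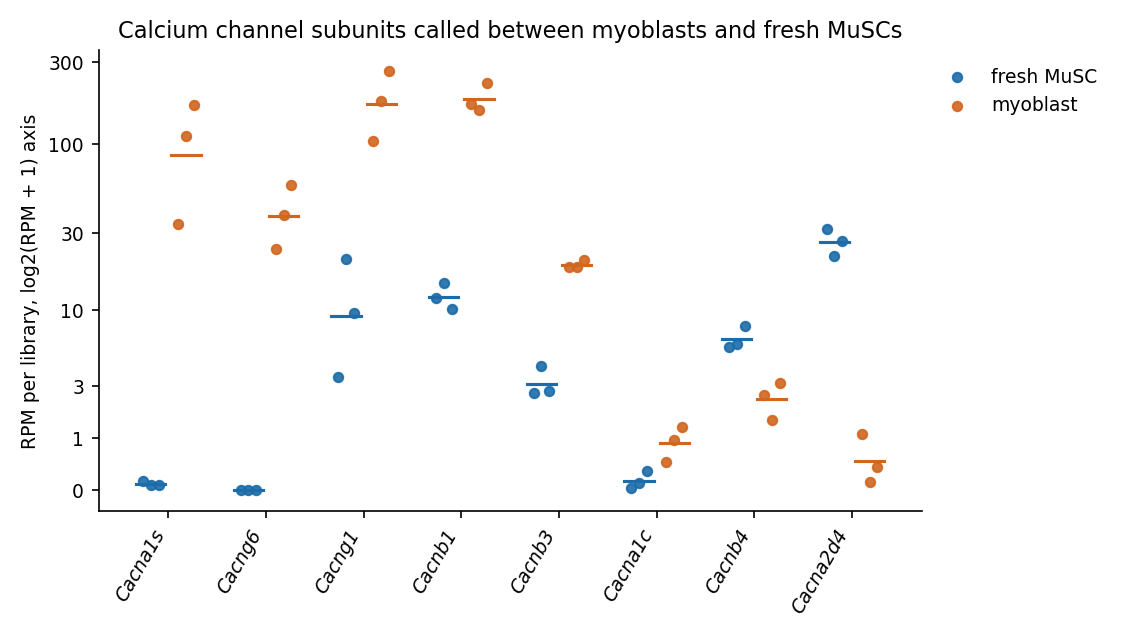
RPM of the 8 calcium channel subunits called between fresh MuSCs and myoblasts, on a log2(RPM + 1) axis. Each point is a library and each line the mean of the 3 log2 values; Cacng6 was at 0 RPM and Cacna1s under 0.2 RPM in the MuSCs, and Cacna2d4 and Cacnb4 are the members that lay lower in myoblasts.

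Sodium channel genes differed in both directions between the stages. Of 12 tested, 6 were called higher in myoblasts and 2 lower, against 22.2% and 20.6% of all genes tested. The median log2 difference was 0.64. Scn4a, the channel of adult muscle (Nav1.4), stood at 0.167, 0 and 0 RPM in MuSCs and 9.31, 4.99 and 12.3 RPM in myoblasts (log2 difference 3.15 ± 0.35, adjusted p = 0.000182).

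Scn3b, a beta subunit, was at 0.102, 2.12 and 5.87 RPM in MuSCs and 53.0, 46.4 and 41.2 RPM in myoblasts, a log2 difference of 4.05 ± 0.58 (adjusted p = 0.000695). It was the subunit with the most RNA per kilobase among the sodium members in myoblasts (6.54 RPM per kb). The neuronal channels Scn9a, Scn10a and Scn3a were higher from a very low level. Scn9a averaged 0.0748 RPM in MuSCs and 2.28 RPM in myoblasts (adjusted p = 0.00111), and Scn10a averaged 0.0102 and 1.16 RPM (adjusted p = 0.00295). Scn3a stood at 0.117, 0.0225 and 0.164 RPM in MuSCs and at 0.370, 4.83 and 8.52 RPM in myoblasts 4, 5 and 6. Its call (log2 difference 1.95 ± 0.60, adjusted p = 0.0290) was lost without any single library other than myoblast 4, with adjusted p-values of 0.0686, 0.0838, 0.0713, 0.0970 and 0.0783 without MuSC 4, MuSC 5, MuSC 6, myoblast 5 and myoblast 6.

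Scn7a, which encodes the sodium-sensing channel Nax rather than a voltage-gated channel, stood at 6.54, 11.8 and 15.6 RPM in MuSCs and 0.297, 0.111 and 0.198 RPM in myoblasts, 1.78% of the MuSC mean (log2 difference -3.29 ± 0.36, adjusted p = 0.000165). Scn7a, Cacna2d4 and the potassium channel genes Kcnt2 and Kcnj8 were lower in myoblasts, as were both the summed fibro-adipogenic markers and the summed MuSC markers. MuSC 4 had the least fibro-adipogenic and the most MuSC marker RNA of the MuSC libraries. Cacna2d4 was highest there, and Scn7a, Kcnt2 and Kcnj8 were lowest there. The fibro-adipogenic markers were highest in MuSC 5 (3151, 3698 and 3237 RPM in MuSC 4, 5 and 6). Kcnj8 was also highest in MuSC 5, whereas Scn7a and Kcnt2 were highest in MuSC 6. The part of fibro-adipogenic RNA in these differences was not tested. Scn2a, Scn8a and Scn11a averaged between 0.26 and 1.57 RPM in both groups and none was called (adjusted p from 0.0933 to 0.811). Of the ENaC genes, the best known NEDD4L substrates, Scnn1a was the member listed, at 0.723, 0 and 0 RPM in MuSCs and 0.362, 0.240 and 0.464 RPM in myoblasts. It was at most 0.723 RPM in any library and was not called (log2 difference 0.17, 95% interval -0.37 to 0.71, adjusted p = 0.583).

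**Figure D3:**
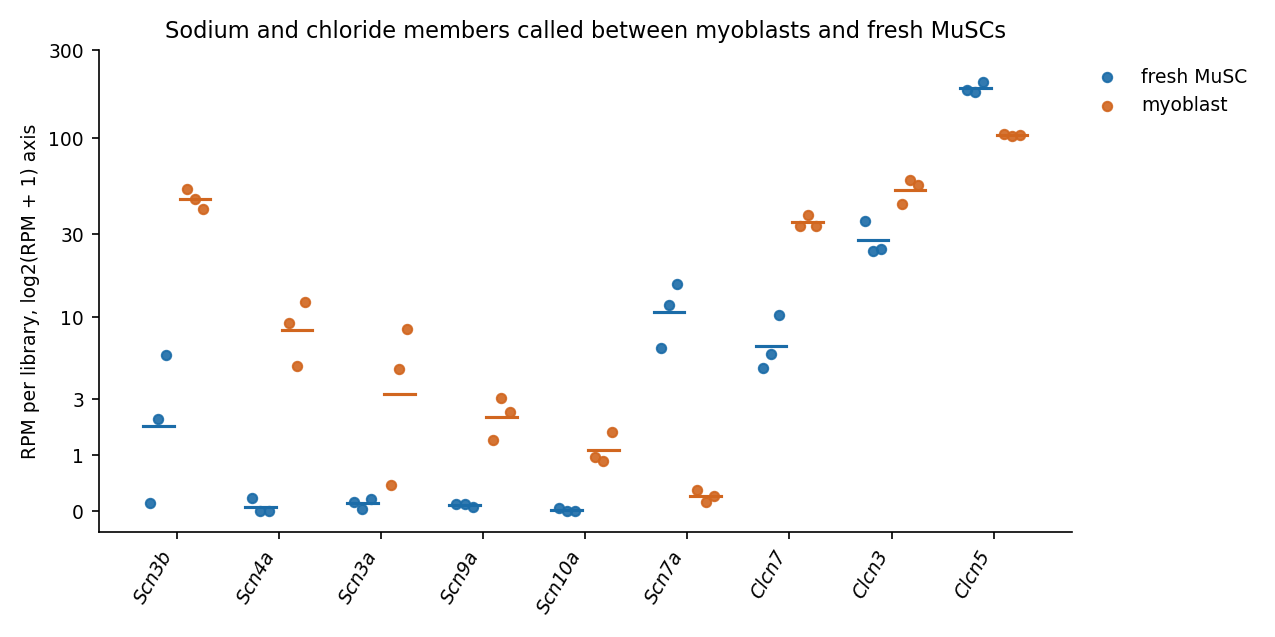
RPM of 6 sodium and 3 chloride members called between fresh MuSCs and myoblasts, on a log2(RPM + 1) axis, sodium genes first. Each point is a library and each line the mean of the 3 log2 values; Scn7a, at up to 15.6 RPM in MuSCs, lay lower in myoblasts, where Scn3b reached 53.0 RPM.

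Potassium channel genes, the largest group, were evenly divided. Of 43 tested, 8 (18.6%) were called higher and 8 (18.6%) lower in myoblasts, against 22.2% and 20.6% of all genes tested. The median log2 difference was 0.16. The widest difference of any channel gene was that of Kcnf1, which encodes Kv5.1, an electrically silent subunit that modifies Kv2 channels. Kcnf1 was listed at 0 in all 3 MuSC libraries and stood at 111, 118 and 79.1 RPM in myoblasts (adjusted p = 1.59e-06). The gene lies on chr12:17222101-17226889 (GRCm39, minus strand), and in myoblasts it had the most RNA per kilobase of the potassium members (21.5 RPM per kb). Kcns3, another silent subunit of Kv2 channels (Kv9.3), showed the opposite. It stood at 26.9, 30.7 and 24.1 RPM in MuSCs and 0.115, 0.138 and 0.286 RPM in myoblasts, 0.66% of the MuSC mean (log2 difference -4.58 ± 0.30, adjusted p = 9.88e-06).

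Among the Kv7 genes, a family that NEDD4L is known to ubiquitinate, Kcnq3 averaged 0.997 RPM in MuSCs and 1.30 RPM in myoblasts and Kcnq5 averaged 0.603 and 1.15 RPM, without a call (adjusted p = 0.499 and 0.199), and Kcnq1 did not pass the filter (0.123 and 0.662 RPM on average).

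Of 5 tandem-pore channel genes tested, 3 were called, all higher in myoblasts, and of 6 inward rectifiers tested, 2 were called higher and 1 lower. These counts rest on few genes, and of all genes tested 42.8% were called. Kcnk13, a tandem-pore leak channel, stood at 12, 6.18 and 7.08 RPM in MuSCs and 57.4, 64.8 and 75.4 RPM in myoblasts, 7.82 times the mean (log2 difference 2.87 ± 0.29, adjusted p = 0.000113). Kcnk5 stood at 0.0611, 0.291 and 0.0648 RPM in MuSCs and 7.10, 9.08 and 5.50 RPM in myoblasts (adjusted p = 0.000119). Kcnk2, which encodes the stretch-sensitive channel TREK-1, stood at 0.127, 0 and 0 RPM in MuSCs and 4.03, 6.77 and 3.52 RPM in myoblasts (adjusted p = 0.000223). Groups that did not overlap were a condition for naming these 3 tandem-pore genes, and 55.2% of all genes tested had such groups. Kcnj12 (Kir2.2), a strong inward rectifier, stood at 2.17, 0.162 and 0 RPM in MuSCs and 2.83, 23.5 and 19.2 RPM in myoblasts (log2 difference 3.00 ± 0.73, adjusted p = 0.00997), with myoblast 4 just above MuSC 4.

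The 2 pores of ATP-sensitive potassium channels went in opposite directions. Kcnj8 (Kir6.1) stood at 2.37, 3.62 and 3.50 RPM in MuSCs and 0.0802, 0.0422 and 0.0427 RPM in myoblasts (log2 difference -1.97 ± 0.23, adjusted p = 0.000244). Kcnj11 (Kir6.2, named after its values were seen) stood at 0.0227, 0 and 0 RPM in MuSCs and 0.524, 0.895 and 1.72 RPM in myoblasts (log2 difference 0.98 ± 0.23, adjusted p = 0.00907). Both remained low in absolute level.

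Of 6 calcium- or sodium-activated channel genes tested, 1 was called higher, 2 were called lower and 3 were not called, beside 42.8% of all genes called. Kcnn4, the intermediate-conductance channel KCa3.1, stood at 0.0219, 0.0232 and 0.0698 RPM in MuSCs and 16.0, 26.7 and 18.0 RPM in myoblasts (log2 difference 4.32 ± 0.32, adjusted p = 1.95e-05). Kcnma1, the large-conductance BK channel, was lower, with 11.8, 11.1 and 8.85 RPM in MuSCs and 1.54, 2.57 and 4.80 RPM in myoblasts (log2 difference -1.62 ± 0.38, adjusted p = 0.00828). Kcnt2, a sodium-activated channel, stood at 5.42, 7.20 and 12.2 RPM in MuSCs and 0.302, 0.0939 and 0.0158 RPM in myoblasts (log2 difference -2.97 ± 0.34, adjusted p = 0.000216). The rule for naming these 3 genes required groups that did not overlap.

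Of the auxiliary MinK-related subunits, 4 were tested and 2 were called, both lower, beside 20.6% of all genes called lower. Kcne1l (KCNE5) stood at 15.6, 13.2 and 18.0 RPM in MuSCs and 1.19, 0.377 and 0.396 RPM in myoblasts (log2 difference -3.35 ± 0.33, adjusted p = 9.04e-05). It had the most RNA per kilobase of the potassium members in these MuSCs (10.1 RPM per kb). Kcne4, which is known to inhibit Kv channels, stood at 6.88, 2.43 and 2.85 RPM in MuSCs and 0.0316, 0.0378 and 0.0512 RPM in myoblasts (log2 difference -2.18 ± 0.33, adjusted p = 0.00100). Kcnh7, an ERG channel, fell by 1.67 ± 0.27 on the log2 scale (3.78 RPM in MuSCs and 0.490 RPM in myoblasts on average, adjusted p = 0.00127), and 18.6% of its exonic bases overlap the gene Gca on the opposite strand. Kcna3, the Kv1.3 channel, averaged 1.13 RPM in MuSCs and 0.236 RPM in myoblasts, and 27.5% of its exonic bases overlap a lncRNA on the opposite strand. Its call (log2 difference -0.77 ± 0.23, adjusted p = 0.0244) was lost without MuSC 4, MuSC 5 or myoblast 6, with adjusted p-values of 0.0599, 0.0521 and 0.10.

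The calls of 2 further voltage-gated genes, named after their values were seen, depended on the model. Kcnc1 stood at 0.213, 1.69 and 0.282 RPM in MuSCs and 0.417, 10.3 and 12 RPM in myoblasts. Its adjusted p was 0.0815, 0.0381 with the shared library number as a block and 0.00101 without myoblast 4. Kcnh6 stood at 0, 0 and 0.0442 RPM in MuSCs and 9.62, 0.548 and 0.895 RPM in myoblasts. Its adjusted p was 0.0612, 0.0460 with the shared library number as a block, 0.00919 without myoblast 4 and 0.0356 without myoblast 5. Kcnc1 and Cacna2d1 were lowest among the myoblasts in library 4, and Kcnh6 was highest there. Library 4 had the least RNA both of the muscle fiber markers and of the markers of cycling or differentiating myoblasts. The part of either in these differences was not tested.

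**Figure D4:**
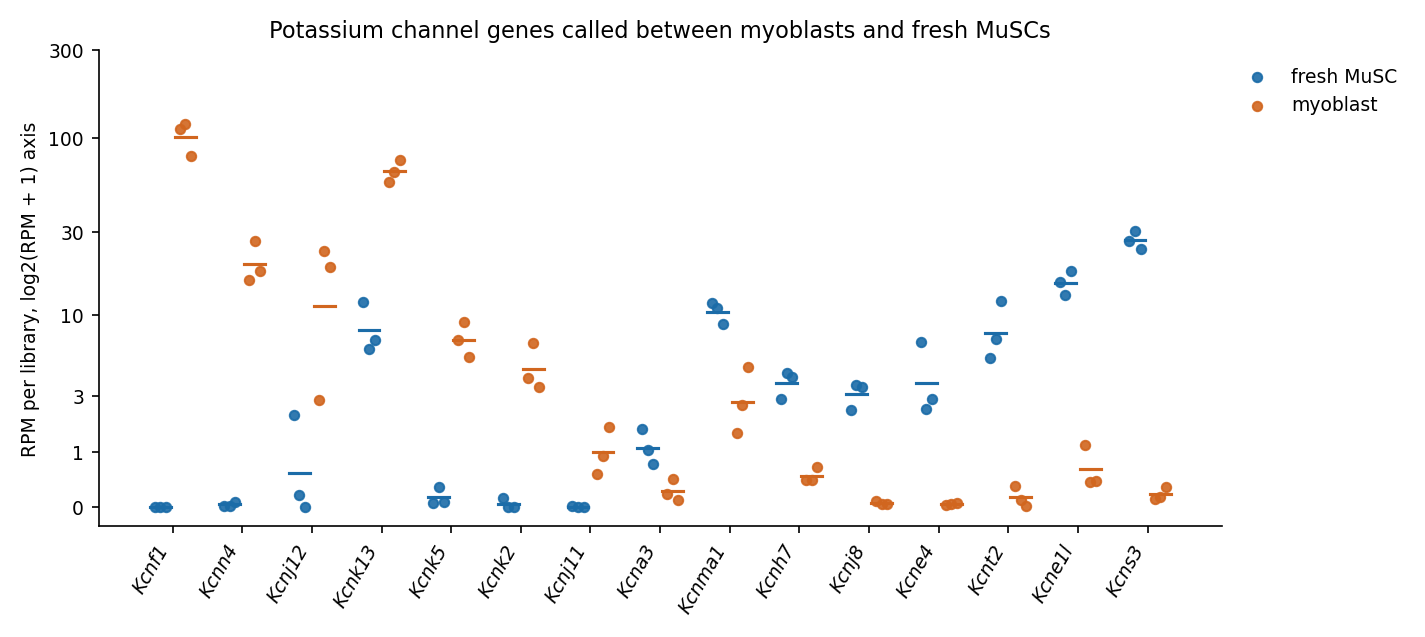
RPM of 15 potassium channel genes called between fresh MuSCs and myoblasts, on a log2(RPM + 1) axis, from the largest increase (Kcnf1) to the largest decrease (Kcns3). Each point is a library and each line the mean of the 3 log2 values; Kcnf1 went from 0 to between 79.1 and 118 RPM and Kcns3 from between 24.1 and 30.7 RPM to under 0.3 RPM.

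Chloride members carried the most channel RNA in MuSCs and differed little in sum. Clcn5, an endosomal chloride/proton exchanger, had the highest level per kilobase of any channel gene in these MuSCs (15.6 RPM per kb). It stood at 184, 178 and 203 RPM in MuSCs and 106, 103 and 105 RPM in myoblasts, 55.7% of the MuSC mean (log2 difference -0.84 ± 0.17, adjusted p = 0.00387). Clcn4, its close relative, did not pass the test (104, 109 and 133 RPM against 125, 96.7 and 88.5 RPM; log2 difference -0.17, 95% interval -0.63 to 0.30, adjusted p = 0.544). Clcn7, the lysosomal exchanger, named after its values were seen, stood at 4.87, 5.95 and 10.3 RPM in MuSCs and 33.2, 38.2 and 33.1 RPM in myoblasts, 4.94 times the mean (log2 difference 2.21 ± 0.32, adjusted p = 0.000675). Clcn3 stood at 35.4, 24.0 and 24.8 RPM and at 43.7, 58.9 and 55.5 RPM (log2 difference 0.90 ± 0.25, adjusted p = 0.0173). This call was lost without MuSC 5, MuSC 6, myoblast 5 or myoblast 6, with adjusted p-values of 0.0652, 0.0607, 0.0723 and 0.0606.

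Clcn1, the channel that sets the chloride conductance of adult fibers, was listed at 0 in MuSCs and at 0, 0.957 and 1.97 RPM in myoblasts 4, 5 and 6, and did not pass the filter. The gene was named after its values were seen. The HCN genes were low: Hcn3 averaged 1.16 RPM in MuSCs and 1.22 RPM in myoblasts, without a call (adjusted p = 0.996).

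Partners of these channels were read from a list of 101 other ion transport genes. Of 71 tested, 29 were called higher and 11 lower in myoblasts, against 22.2% and 20.6% of all genes tested. The following examples were picked after their values were seen. Stac3, an adaptor needed for Cav1.1 to reach the membrane and to work there, stood at 1.46, 0.540 and 0.727 RPM in MuSCs and 31.9, 32.9 and 36.1 RPM in myoblasts (log2 difference 4.21 ± 0.32). Sgk1, the kinase known to inhibit NEDD4L, was lower in myoblasts (356, 248 and 226 RPM against 58.5, 44.5 and 42.8 RPM). Nedd4, the closest relative of Nedd4L, was not called (log2 difference 0.12 ± 0.18, adjusted p = 0.605). Of the 6 genes tested from the list of NEDD4L and its regulators, 3 were called, and all 3 were lower: Nedd4L, Sgk1 and Ndfip2. Of all genes tested, 42.8% were called and 20.6% were called lower.

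Between cKO and WT MuSCs, 1 channel gene met the thresholds of a call. Of the 88 members listed, 75 passed the filter, and Cacna2d4 was called, lower in cKO; of all 15304 genes tested, 0.653% were called, 0.451% higher and 0.203% lower. By the adjusted p alone, 1 channel gene and 0.784% of all genes passed. At an unadjusted p under 0.05 there were 19 channel genes of 75, 5 higher and 14 lower, against 14.6% of all genes (7.51% higher and 7.13% lower). The groups did not overlap for 15, 5 higher and 10 lower, against 19.3% of all genes (9.75% and 9.59%). The median log2 difference was -0.05 over the channel genes and 0.0015 over all genes. In sum the channel genes stood at 733 to 854 RPM in WT and 734 to 841 RPM in cKO libraries. Values of genes other than Cacna2d4 are given without a claim of change, since their adjusted p-values were above 0.05.

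Cacna2d4 stood at 14.6, 21.4 and 13.1 RPM in WT and 4.54, 3.52 and 2.78 RPM in cKO MuSCs, 22.0% of the WT mean (16.4 ± 4.43 against 3.61 ± 0.881 RPM, SD, n = 3 each). The groups were well apart, with a log2 difference of -1.90 ± 0.34 (adjusted p = 0.0322). The call was lost without any single library other than WT 3, with adjusted p-values of 0.0636, 0.141, 0.0598, 0.116 and 0.0636 without WT 1, WT 2, cKO 1, cKO 2 and cKO 3, while the log2 difference stayed between -1.70 and -2.04. The gene lies on chr6:119213408-119329368 (GRCm39, plus strand). Of the channel genes called lower in myoblasts, it also had the largest decrease after Kcns3.

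Of 16 calcium members tested, those other than Cacna2d4 with an unadjusted p under 0.05 were 4 lower and 1 higher, against 7.13% and 7.51% of all genes. The 3 pore genes among them were Cacna1g, a T-type channel (8.15, 3.67 and 2.95 RPM in WT and 1.94, 0.802 and 0.540 RPM in cKO; log2 difference -1.46 ± 0.42, adjusted p = 0.145), Cacna1a, a P/Q-type channel (5.62, 5.40 and 7.59 against 4.13, 1.06 and 1.13 RPM; -1.34 ± 0.42, adjusted p = 0.179), and Cacna1d, an L-type channel (4.31, 8.05 and 9.14 against 4.08, 1.93 and 1.29 RPM; -1.28 ± 0.42, adjusted p = 0.195). For each of the 3, every cKO library lay below every WT library, by a small margin for Cacna1d. Cacnb1 stood at 7.77, 12.9 and 4.22 RPM in WT and 1.74, 2.42 and 6.63 RPM in cKO, with overlap (log2 difference -1.05 ± 0.48, adjusted p = 0.341). Cacng1 lay the other way, at 5.15, 3.09 and 3.95 RPM in WT and 15.4, 7.73 and 12.5 RPM in cKO without overlap (log2 difference 1.32 ± 0.36, adjusted p = 0.130). Cacna1s, which was at most 0.171 RPM in WT, was at 0.839, 0 and 0.544 RPM in cKO and did not pass the filter. Cacng1 and the summed muscle fiber markers both had higher values in every cKO than in every WT library, and Cacng1 had the order of these markers within each genotype. Scn3b was instead lowest among the cKO libraries in cKO 1, which had the most fiber marker RNA. Cacnb1 was highest in WT 2, with the least fiber marker RNA of the WT libraries, and lowest in cKO 1. The part of fiber RNA in the values of Cacng1, Cacna1s, Scn3b and Cacnb1 was not tested.

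Among 9 sodium members tested, 5 had an unadjusted p under 0.05, against 14.6% of all genes. Scn7a stood at 8.14, 6.04 and 6.42 RPM in WT and 9.19, 34.5 and 27.3 RPM in cKO (log2 difference 1.47 ± 0.44, adjusted p = 0.154), and cKO 1 lay close to WT. Without cKO 1 it was called, with a log2 difference of 2.02 (adjusted p = 0.0354). The summed fibro-adipogenic markers stood at 4092, 2649 and 3314 RPM in WT 1, 2 and 3. In cKO 1, 2 and 3 they stood at 4312, 3345 and 2342 RPM. Scn7a had the order of these markers in WT, whereas among the cKO libraries it was lowest in cKO 1, where the markers were highest. The part of fibro-adipogenic RNA in the Scn7a values was not tested.

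Scn3b was at 0.0606, 0.0304 and 0.0317 RPM in WT and 0.273, 1.45 and 1.74 RPM in cKO (log2 difference 0.97 ± 0.28, adjusted p = 0.149), and Scn11a at 1.22, 0.766 and 0.588 RPM and 0, 0.676 and 0 RPM (-0.63 ± 0.26, adjusted p = 0.302). Scn2a, Scn2b, Scn3a and Scn8a had adjusted p-values from 0.448 to 0.851. No ENaC gene was among the members of the table of genotypes.

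**Figure D5:**
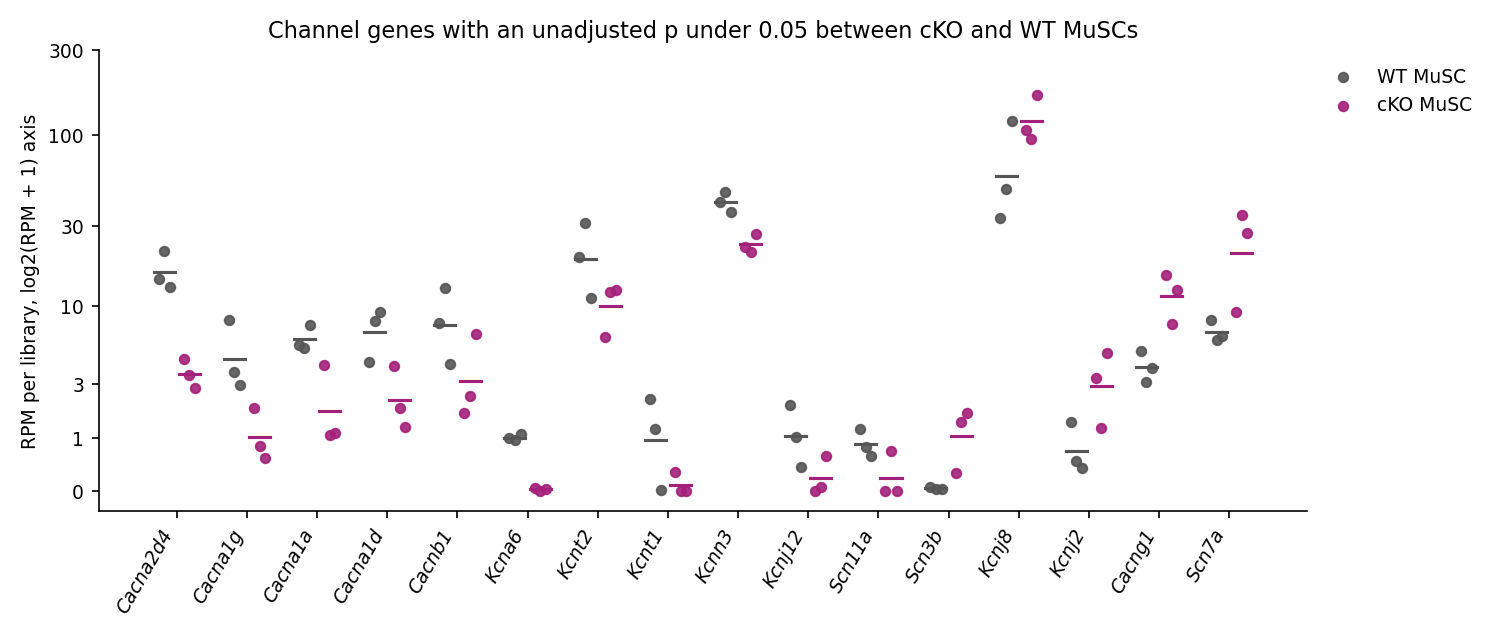
RPM of 16 channel genes with an unadjusted p under 0.05 between WT and cKO MuSCs, on a log2(RPM + 1) axis, from the lowest to the highest log2 difference. Each point is a library and each line the mean of the 3 log2 values; Cacna2d4, from between 13.1 and 21.4 RPM to between 2.78 and 4.54 RPM, is the gene that was called, and cKO 1 stands apart from the other cKO libraries in Scn7a.

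Of 42 potassium channel genes tested, none was called, and 8 had an unadjusted p under 0.05, 2 higher and 6 lower, against 14.6% of all genes. Kcnn3, the small-conductance SK3 channel, stood at 41.2, 46.8 and 36.0 RPM in WT and 22.6, 21.1 and 27.0 RPM in cKO, without overlap (log2 difference -0.78 ± 0.26, adjusted p = 0.198). Kcna6, a Kv1 channel, was at 0.982, 0.934 and 1.10 RPM in WT and at 0.0472, 0 and 0.0306 RPM in cKO (log2 difference -0.97 ± 0.20, adjusted p = 0.0503). All cKO libraries of Kcna6 were close to 0, but its level was under 5 RPM, and 39.7% of its exonic bases overlap a lncRNA on the opposite strand. Kcnt2, Kcnt1 and Kcnj12 had log2 differences of -0.88 ± 0.40, -0.85 ± 0.36 and -0.78 ± 0.31, with overlapping groups (adjusted p = 0.341, 0.313 and 0.281). Of the Kv7 genes, Kcnq3 and Kcnq5 had adjusted p-values of 0.734 and 0.986, and Kcnq1 did not pass the filter.

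The 2 potassium channel genes with higher values were inward rectifiers. Kcnj2 (Kir2.1) stood at 1.44, 0.473 and 0.353 RPM in WT and 3.35, 1.27 and 5.01 RPM in cKO (log2 difference 1.20 ± 0.41, adjusted p = 0.209). Kcnj8 stood at 33.5, 49.2 and 119 RPM in WT and 107, 94.5 and 167 RPM in cKO with overlap (log2 difference 1.02 ± 0.41, adjusted p = 0.292). The summed smooth muscle and pericyte markers stood at 1342, 1219 and 1969 RPM in WT and 2196, 2622 and 3353 RPM in cKO. WT 3 and cKO 3 had the most of both in their group, whereas the other 2 libraries of each group were ordered the opposite way in Kcnj8 and in the markers. Kcnj8 is itself a known gene of pericytes, as is Rgs5, which was picked after its values were seen. Rgs5 stood at 280, 570 and 1034 RPM in WT and 355, 1270 and 1945 RPM in cKO. It had the order of Kcnj8 in WT, whereas cKO 1 lay above cKO 2 in Kcnj8 and below it in Rgs5. In the MuSCs of the first cohort, whose table was normalized separately, Kcnj8 was at most 3.62 RPM and Rgs5 at most 16.6 RPM. The summed smooth muscle and pericyte markers (8 of 10 listed) nevertheless stood at 1136 to 1484 RPM there. The part of pericyte RNA in the Kcnj8 values was not tested.

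No chloride member was called between the genotypes. Clcn5 was at 246, 316 and 207 RPM in WT and 243, 251 and 237 RPM in cKO, which left a log2 difference of -0.05 with a 95% interval of -0.58 to 0.48 (adjusted p = 0.942). Clcn4 (-0.26 to 0.81) and Clcn3 (-1.04 to 0.17) had intervals that also held 0, and none of the 6 chloride genes tested reached an unadjusted p of 0.05. Hcn3 was at or under 2.19 RPM in every library. Of 70 tested genes of the other ion transport list, 1 was called, against 0.653% of all genes tested. It was Trpm3, a calcium-permeable TRP channel, higher in cKO (2.37, 2.93 and 6.89 RPM in WT and 19.7, 13.2 and 19.7 RPM in cKO, log2 difference 1.95 ± 0.39, adjusted p = 0.0465).

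Set beside the myoblast comparison, which used other libraries, the genes that differed most between genotypes did not go 1 way. Of the 12 channel genes with an unadjusted p under 0.05 and lower values in cKO that were tested in both tables, 3 were called lower in myoblasts (Cacna2d4 and Kcnt2 among them), 4 were called higher (Cacnb1 and Kcnj12 among them) and 5 were not called. Of the 5 with higher values in cKO, 2 were called higher in myoblasts (Scn3b and Cacng1) and 2 lower (Kcnj8 and Scn7a). Over all genes, 32.4% of the 1065 with lower values in cKO at this p were called lower in myoblasts and 18.1% higher. Of the 1087 with higher values, 22.4% were called higher and 23.1% lower.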

How the data were processed

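Transcripts had been quantified with kallisto 0.46.1 on the GENCODE vM28 basic annotation, summed to genes and analysed with DESeq2, per the labels and the methods of the study. The deposited values are a signal: counts that the authors divided by DESeq2 normalization factors, with 1 table for each of the 2 comparisons. At the best step found, 45.4% to 65.8% of the low values per library came out whole (tolerance 0.05), so whole reads could not be had back and the depth of sequencing is unknown. Library totals of normalized counts ran from 33189802 to 37595659 in the table of myoblasts and MuSCs and from 40323468 to 50687122 in the table of genotypes. Columns that hold the authors' own fold changes and p-values were not used.

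RPM were obtained by dividing normalized counts by the mean total of a table's 6 libraries, and log2(RPM + 1) was tested with limma 3.58.1 in R 4.3.3 (trend and robust moderation, group as the only term), after a test on simulated data. Genes needed at least 10 normalized counts in at least 3 libraries. RPM per kilobase used all exonic bases of a gene in GENCODE vM39 (GRCm39), which is a later release of the annotation on the same assembly. Whether the library kit marks strand is not given in the sources used here, so overlapping genes on opposite strands were treated as not separable. Libraries left out in turn kept the genes tested and the scaling of all 6.

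The MuSC and myoblast libraries share numbers in their labels, and whether these stand for mice is not given. Deviations from the group means were nearly uncorrelated between same-numbered libraries (r = -0.0314, -0.0050 and 0.0180 across genes). The values with the shared number as a block are given where they change a call. The WT and cKO libraries come from different mice.

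The members and lists were chosen with earlier results of these data known. In the myoblast comparison, the rule for naming took the 15 largest increases and 15 largest decreases among called genes with non-overlapping groups and a mean of at least 1 RPM in the higher group. In the genotype comparison it took every gene called or with an unadjusted p under 0.05. In both it took every Scn, Scnn and Kcnq gene and the 3 genes per ion with the highest RPM per kilobase in MuSCs. Some genes that the rule names are not reported here, though they remain in the counts and sums. Alternatives were a pseudocount of 0.1 RPM, no filter on low values, a filter on all 6 libraries, scaling to each library's own total, limma without trend and robust moderation, the replicate block, single libraries left out, and other thresholds for a call.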

Additional observations from a re-analysis of the deposited data

How the results depend on the processing

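The number of channel genes called between myoblasts and MuSCs was 35 in the fit reported, between 30 and 39 under the other alternatives except for a stricter filter, and from 31 to 39 with single libraries left out. With at least 10 normalized counts required in all 6 libraries, 29 channel genes could be tested, and 15 were called, 8 higher and 7 lower, with 17 at an unadjusted p under 0.05; genes at or near 0 in a group, such as Cacna1s, Kcns3 and Cacna2d4, leave the test under that filter. The shared library number as a block gave 39 calls. Between cKO and WT MuSCs, 1 gene was called under every alternative but the replicate block, which gave 0 calls, 0 of them lower (adjusted p of Cacna2d4 0.0591), and from 0 to 1 were called with single libraries left out, from 0 to 1 of them higher and from 0 to 1 lower. The WT and cKO libraries share only replicate numbers (correlation of the deviations of same-numbered libraries 0.0192, -0.0232 and -0.181, so these libraries did not each match best by number), and the block left 20 channel genes at an unadjusted p under 0.05, against 19 without it. The block on the shared number added 4 calls in the myoblast comparison, Kcnc1 and Kcnh6 among them, and ended none there.

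Signs changed for named genes that were not called. Between myoblasts and MuSCs, the log2 difference of Hcn3 was 0.066 with each library scaled to its own total and that of Scn2a was 0.11 with a pseudocount of 0.1 RPM. With single libraries left out, Hcn3 ran from -0.26 to 0.40, Scn2a from -0.31 to 0.17 and Scn8a from -0.19 to 0.77. Between cKO and WT MuSCs, Kcnq5 was -0.12 with a pseudocount of 0.1 RPM and -0.0026 with own-total scaling, and Scn8a was -0.029 with that pseudocount. With single libraries left out, Clcn5 ran from -0.19 to 0.11, Kcne1l from -0.29 to 0.74, Kcnq5 from -0.28 to 0.25 and Scn8a from -0.27 to 0.73. The cause was not tested. Over all named genes reported and all settings, 396 values kept their direction and side of the threshold in the myoblast comparison and 299 in the genotype comparison, while 14 and 6 kept their direction but lost a call, 0 and 1 gained one, and 9 and 8 changed sign. Read depth is unknown, and levels under about 1 RPM rest on few counts.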
